A study of Mus musculus with 6 samples.

Results

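Oligodendrocytes wrap axons in myelin, a stack of membrane rich in galactolipids and in a small set of proteins that few other brain cells make. They arise from precursors that carry the receptor Pdgfra and the proteoglycan Cspg4 (NG2), pass through a newly formed stage marked by Enpp6, Gpr17 and Bcas1, and then switch on the myelin genes under the transcription factors Sox10, Olig2 and Myrf. In the striatum their cell bodies lie among the spiny neurons and in the bundles of myelinated fibers that cross the tissue. The genes described here are 34 symbols of this lineage, each matched by Ensembl identifier to 1 row of the deposited table of 46078 genes, and divided by stage into 2 precursor, 3 newly formed and 29 myelinating genes. The 29 were then grouped by role into myelin membrane and junction proteins, lipid and metabolic enzymes, transcription factors and others.

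The striatum of 3 wild-type (WT) and 3 Shank3 transgenic (TG) mice was sequenced, all male, 12 weeks old and on a C57BL/6J background. The TG mice carry a transgene for EGFP-tagged Shank3, a scaffold protein of excitatory synapses, and the labels and methods name no other treatment. The promoter that drives the transgene is not given in the sources used here, and reads of the transgene and of the mouse's own Shank3 were not told apart. Each library came from 1 mouse, and whole tissue was used, so that fewer cells of a type and less RNA per cell cannot be told apart. Between 27689589 and 36647626 reads per library fell on genes, and the 34 genes took 0.770%, 0.732% and 0.725% of them in TG replicates 1, 2 and 3 and 0.738%, 0.739% and 0.834% in WT replicates 1, 2 and 3. All values below are normalized read counts, that is, read counts divided by the size factor of the library. Shank3 itself had between 26044 and 29891 normalized read counts in TG mice and between 12918 and 13865 in WT mice, in the direction of the labels. The myelin markers of the central nervous system were abundant, whereas of the Schwann cell markers Pmp2 had 0 normalized read counts in 5 libraries and 0.935 in WT replicate 2, and Prx had between 60.4 and 76.4. TG replicate 1 stood apart by choroid plexus markers, whose 12 genes summed to 15724 normalized read counts in that library. TG replicates 2 and 3 held 2043 and 665 and the WT mice between 592 and 946. The same library had the lowest sum of the 10 spiny neuron markers (153527, against 178658 to 213589 in the others). Its sum of the 8 cortical excitatory neuron markers was the highest, at 40023, close to the 39223 of TG replicate 3.

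Levels between genes were compared per kb of annotated exon. Mbp, the myelin basic protein that compacts the membrane on its cytoplasmic side, was the most abundant of the 34 genes, with a mean of 12539 normalized read counts per kb over the 6 libraries. It was followed by Mobp (6242 per kb), another basic protein of myelin, by Mal (3877 per kb), a raft-associated membrane protein, by Cnp (3741 per kb), the nucleotide phosphodiesterase of the cytoplasmic myelin channels, and by Cldn11 (3093 per kb), the claudin of myelin tight junctions. The lowest of the 34 genes per kb were Nkx2-2, a transcription factor of the early lineage (32.5 per kb), and Enpp6, a choline phosphodiesterase (55.5 per kb). Summed over the genes of each stage, the precursor genes stood at between 0.494% and 0.573% of the myelinating genes per kb in TG mice and between 0.499% and 0.578% in WT mice. The newly formed genes stood at between 3.84% and 4.13% in TG mice and between 3.80% and 4.14% in WT mice. The ranges of the groups thus overlapped for both ratios. In the newly formed sum Bcas1 weighed most (mean of 1392 per kb), before Gpr17 (357) and Enpp6 (55.5), so that this ratio says little about Enpp6.

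**Figure D1:**
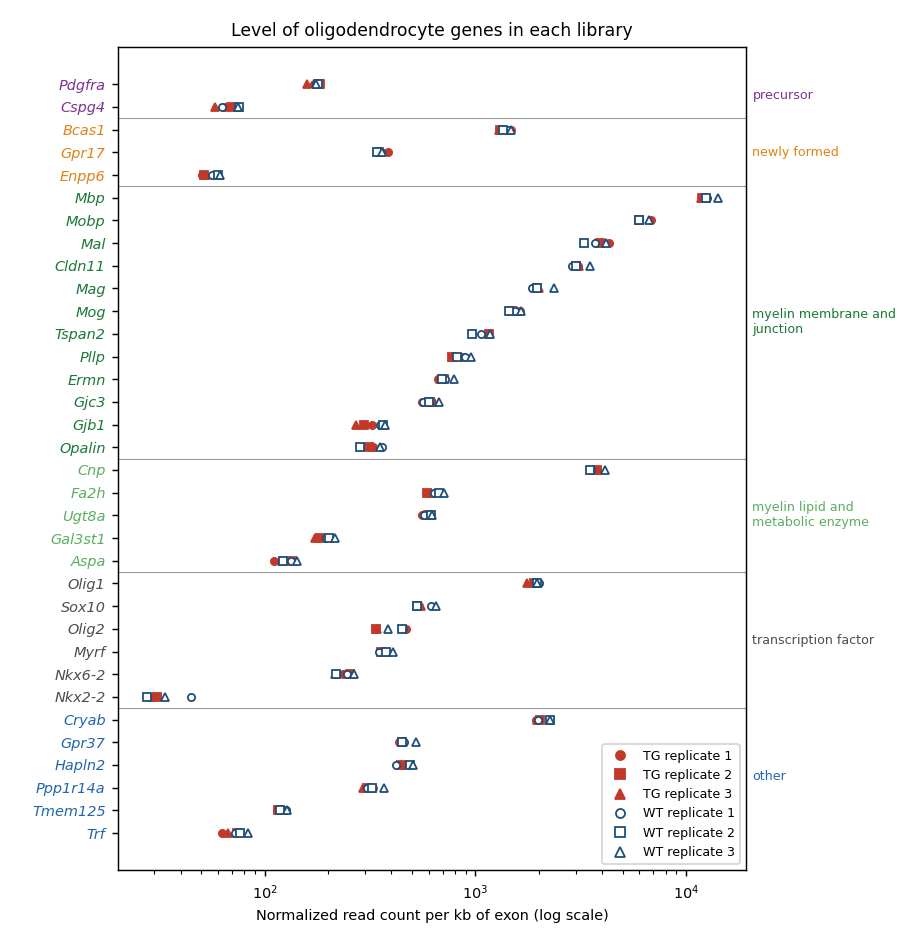
Normalized read count per kb of exon (log scale) of each of the 34 genes in each of the 6 libraries, grouped by stage and role. The genes spread from 32.5 per kb for Nkx2-2 to 12539 per kb for Mbp (means of 6 libraries), while the libraries of each gene lie close together.

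Differences between Shank3 TG and WT mice were tested with limma on log2(normalized read count + 1) across 17605 genes whose mean over the 6 libraries reached 10, a minimum that each of the 34 genes passed. On this scale the fold changes of low genes are understated. Of the 34 genes, 28 were lower and 6 higher on average in TG mice, where 50.8% of all genes tested were lower and 49.2% higher, but the differences were small. The log2 fold changes lay between -0.29 for Gjb1 and 0.13 for Mal, with a median of -0.08 against -0.0018 over all genes tested. By limma, 0 of the 34 genes passed an adjusted P value of 0.05 (the lowest was 0.971), where the background was 0.00568% of all genes. DESeq2 (background 0.0398%) and edgeR on the recovered reads also called 0 of them. At an unadjusted limma P value under 0.05 there were 4 lower genes, Gjb1, Enpp6, Gal3st1 and Cryab, and 0 higher ones, against 2.33% and 1.98% of all genes tested (4.31% in either direction). In 3 of these genes the values of the TG and WT mice did not overlap (8.82% of the 34 genes, against 5.05% of all genes in that direction), and 0 genes were without overlap in the higher direction, against 5.06% (10.1% in either direction). Some marker lists of other cell types were also lower on average in TG mice. All 10 microglia markers were lower, none of them listed at 0 throughout, and they summed to between 12610 and 13596 normalized read counts in TG mice and between 13702 and 14358 in WT mice. Of the 10 spiny neuron markers 9 were lower, with sums between 153527 and 211917 in TG mice and between 183808 and 213589 in WT mice, and none of these markers was listed at 0 throughout. The part of these cell types in the result was not tested.

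**Figure D2:**
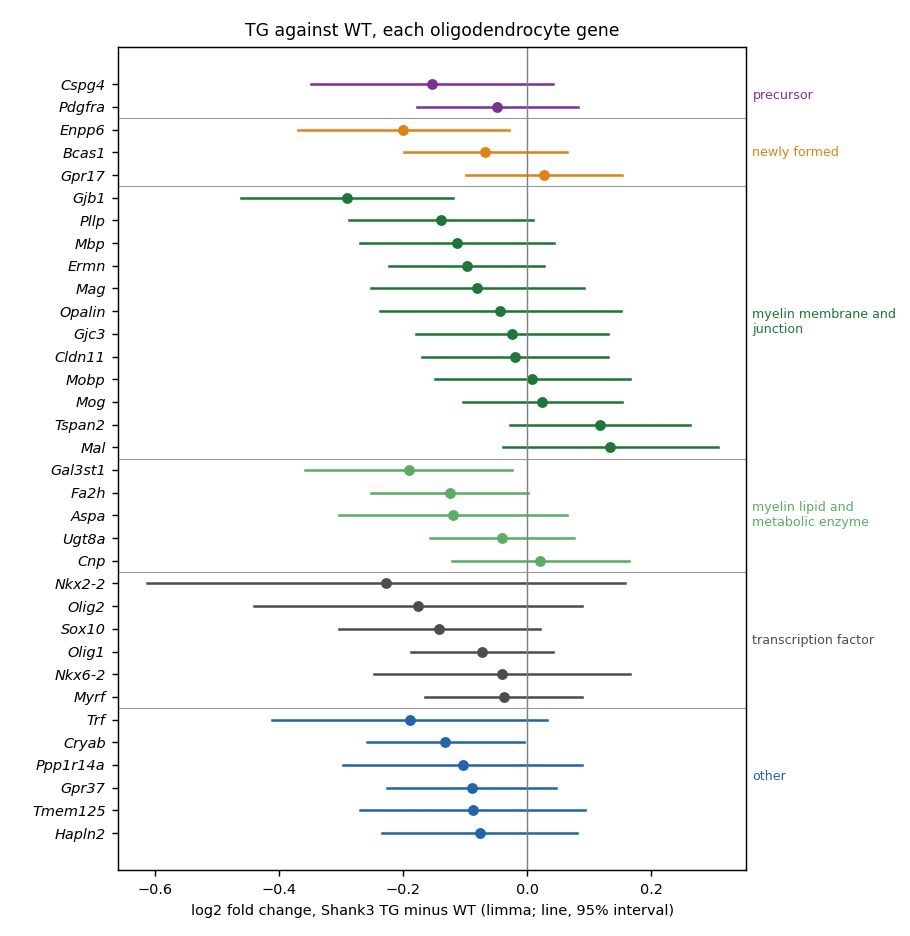
log2 fold change (Shank3 TG minus WT, limma) of each of the 34 genes, with the 95% interval as a line and the stage or role at the right. Most points lie left of 0, and the intervals of Gjb1, Enpp6, Gal3st1 and Cryab, before any adjustment for multiple testing, lie wholly below it.

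The count of lower genes rested in part on WT replicate 3. This library held the highest of the 6 values in 24 of the 34 genes, against 16.8% of all genes tested, and lay above the gene's mean of the 6 libraries in 33 of the 34 (50.8% of all genes). The exception was Olig2. The median difference of the 29 myelinating genes from their mean of the 6 libraries was 0.15 on the log2 scale in WT replicate 3, whereas it was between -0.05 and -0.0022 in the 5 other libraries. The median difference of the 6 transcription factors was high in WT replicate 1 as well (0.09, against 0.10 in WT replicate 3). That of the 3 newly formed genes was high in TG replicate 1 as well (0.09 in both), although Enpp6 had its lowest value there. The median of the 2 precursor genes followed another order, with WT replicate 2 highest at 0.11 and TG replicate 3 lowest at -0.16. Both genes were lowest in TG replicate 3, but Pdgfra was highest in TG replicate 2 and Cspg4 in WT replicate 2. Without WT replicate 3, 22 of the 34 genes were lower in TG mice, and the median log2 fold change was -0.04. The median of the 12 membrane and junction genes then turned from -0.03 to 0.03, and of the 4 genes at an unadjusted P value under 0.05 Gjb1 alone was left. Without TG replicate 1, the library with the highest sum of choroid plexus markers and the lowest of spiny neuron markers, 30 genes were lower, with a median of -0.08.

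**Figure D3:**
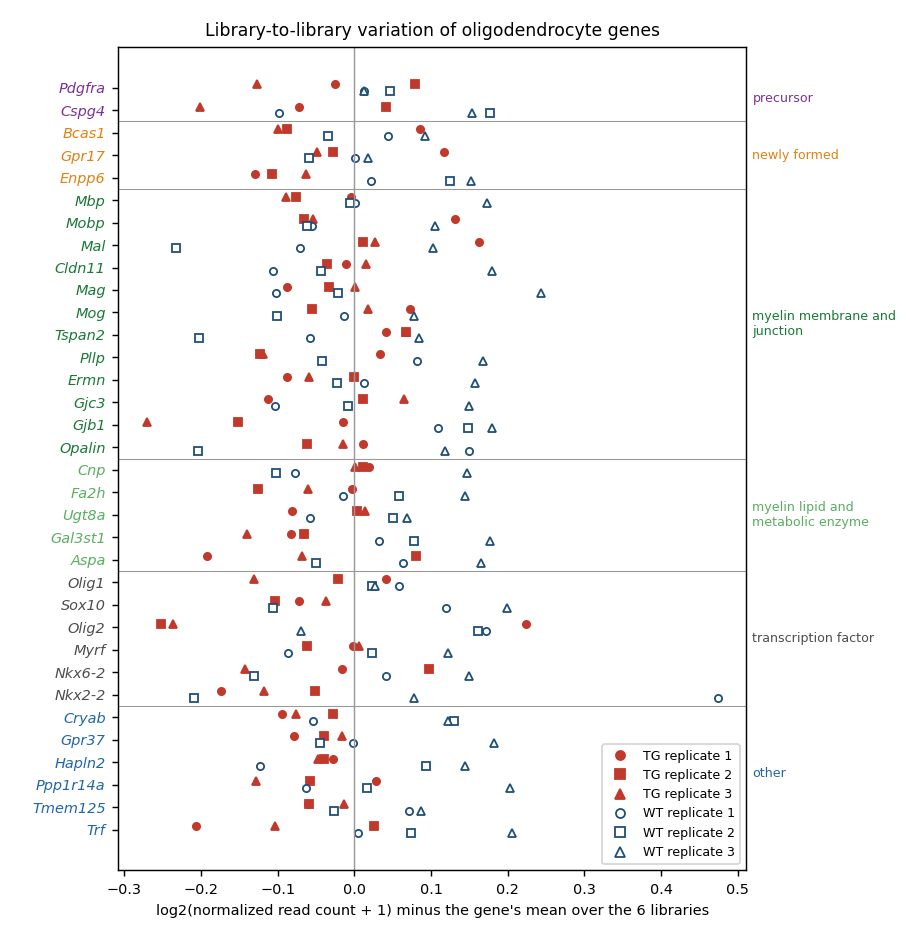
Each gene's log2(normalized read count + 1) minus its mean over the 6 libraries, with filled red symbols for TG mice and open blue symbols for WT mice. The open triangles of WT replicate 3 lie right of 0 in 33 of the 34 genes.

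**Figure D4:**
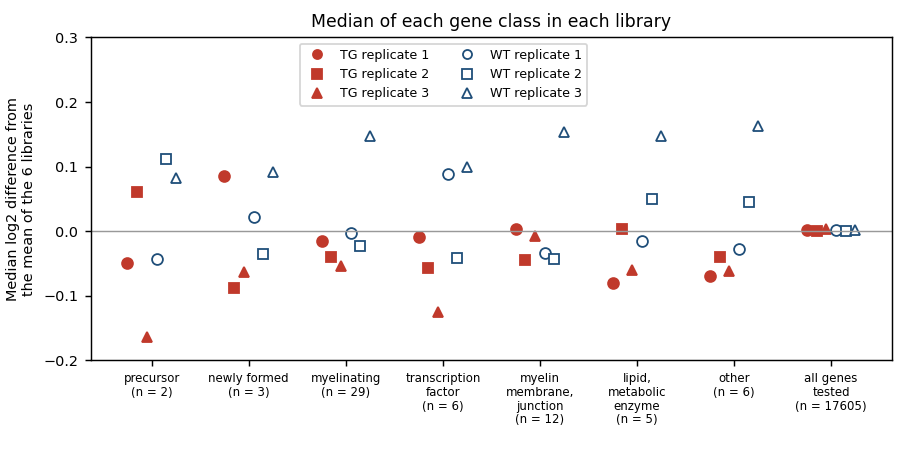
Median of the same difference over the genes of each stage or role, and over all 17605 genes tested, in each library. WT replicate 3 is highest in the myelinating genes (0.15). The medians over all genes stay near 0, where division by the size factors tends to place them.

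Among the precursor genes, Pdgfra, the receptor of platelet-derived growth factor A that precursors need to divide and survive, had 1713, 1842 and 1597 normalized read counts in TG mice, where WT mice had 1759, 1801 and 1759. Its log2 fold change was -0.05 (SE 0.06, the standard error), and the groups overlapped. Cspg4 had 763, 825 and 697 in TG mice, where WT mice had 748, 906 and 891, a log2 fold change of -0.15 (SE 0.09). WT replicate 1 lay among the TG mice. Vascular cells express both genes as well, Pdgfra in fibroblasts and Cspg4 in pericytes. All 5 fibroblast markers (median log2 fold change -0.25) and all 5 mural cell markers (-0.09) had log2 fold changes below 0. The fibroblast marker Lum nevertheless had a mean of 27.9 normalized read counts in TG mice and 27.7 in WT mice. The fibroblast markers, none of them at 0 throughout, summed to between 574 and 966 normalized read counts in TG mice while WT mice had between 790 and 877, and the mural cell markers, none at 0 throughout, to between 6342 and 6670.1 and between 6275 and 7487. Their part in the values of Pdgfra and Cspg4 was not tested.

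Of the newly formed genes, Enpp6 (ENSMUSG00000038173; chromosome 8, 46986887 to 47096762), which marks cells that have just left the precursor stage, had 324, 329 and 339.8 normalized read counts in TG mice, where WT mice had 361, 387 and 395. Each TG mouse was lower than each WT mouse. The log2 fold change was -0.20 (SE 0.08, 95% interval -0.37 to -0.03, limma adjusted P = 0.971). It was between -0.24 and -0.17 when any 1 mouse was left out. DESeq2 on recovered reads gave an unadjusted P value of 0.0745. Gpr17, a receptor that is switched off as the cells mature, had 2009, 1817 and 1792 in TG mice, where WT mice had 1854, 1778 and 1875. It was highest in TG replicate 1 and overlapped otherwise, with a log2 fold change of 0.03 (SE 0.06) that turned to -0.02 without that mouse. The gene shares 188 exon bases with Lims2 on the other strand. Bcas1 had 5568, 4935 and 4896 in TG mice, where WT mice had 5409, 5120.4 and 5592, a log2 fold change of -0.07 (SE 0.06), with TG replicate 1 inside the range of the WT mice. Of the 3 genes of this stage, Enpp6 alone was without overlap.

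Of the 12 myelin membrane and junction genes 8 were lower and 4 higher on average in TG mice, with a median log2 fold change of -0.03. Mbp (ENSMUSG00000041607; chromosome 18, 82475146 to 82585637) had 105657, 100589 and 99650.3 normalized read counts in TG mice, where WT mice had 106115, 105618 and 119519. TG replicate 1 lay close to WT replicates 1 and 2, and WT replicate 3 was far above the rest. The log2 fold change was -0.11 (SE 0.07) and moved to -0.05 without WT replicate 3. Mog, an immunoglobulin-like protein of the outermost myelin surface, had 2790.4, 2553 and 2687 in TG mice, where WT mice had 2629, 2473 and 2799, so that the groups overlapped (log2 fold change 0.02, SE 0.06). Mobp (0.01, SE 0.07) and Mag, the adhesion protein next to the axon (-0.08, SE 0.08), also had overlapping groups. Mal and Tspan2, a tetraspanin, were the highest of the 34 genes in fold change, with 0.13 (95% interval -0.04 to 0.31) and 0.12 (95% interval -0.03 to 0.26). Mal had 12008, 10813 and 10932 in TG mice, where WT mice had 10218, 9135 and 11516, and Tspan2 had 5405, 5499.6 and 5502 in TG mice, where WT mice had 5046, 4561 and 5565. In both genes each TG mouse was above WT replicates 1 and 2, and WT replicate 3 was as high as the TG mice. The log2 fold changes were 0.22 for Mal and 0.19 for Tspan2 without WT replicate 3, but 0.05 for each without WT replicate 2, and Mal had 0.09 without TG replicate 1. Without WT replicate 3, Cnp and Cldn11 were also higher in each TG mouse than in the WT mice left. Pllp, a proteolipid of the same family as Mal, went the other way, with a log2 fold change of -0.14 (SE 0.07). Pllp shares 1128 of its 2083 exon bases with Gm45767 on the other strand, which is not among the deposited genes. Ermn, a cytoskeletal protein of late myelination, had -0.10 and Opalin, a central nervous system myelin glycoprotein, -0.04. Cldn11 had a log2 fold change of -0.02.

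Among the gap junction genes, Gjb1 (ENSMUSG00000047797; chromosome X, 101376378 to 101385629), a connexin of oligodendrocytes and of Schwann cells and the gene with the lowest log2 fold change of the 34, had 553, 504 and 463 normalized read counts in TG mice, where WT mice had 603, 620.1 and 633. The groups did not overlap, and the means were 507 ± 45.1 (SD, n = 3) for TG and 619 ± 15.1 (SD, n = 3) for WT mice, giving a ratio of 0.819. The log2 fold change was -0.29 (SE 0.08, 95% interval -0.46 to -0.12), and limma gave an unadjusted P value of 0.00335 and an adjusted one of 0.971. An exact permutation test (two-sided) gave P = 0.1, the smallest that 3 mice against 3 allow. The log2 fold change was between -0.36 and -0.23 with each mouse left out, and the adjusted P value was between 0.550 and 1.00 over all alternatives. Gjc3, another connexin of the lineage, had a log2 fold change of -0.03 (SE 0.07), with overlapping groups.

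Of the 34 genes, 25 were matched to a promoter window of RefSeq (build GRCm38.p6), from 250 bases before to 50 bases after the start, and where a gene had several the window farthest 5′ was taken. The windows were searched on both strands for the motif of Myrf (CTGGCAC or CTGGTAC), for SOX motifs (ACAAAG or ACAATG) and for E-boxes of the type that Olig2 binds (CAGCTG or CAGATG). The Myrf motif was in 6 of the 25 windows (24%), those of Cnp, Hapln2, Mag, Mog, Opalin and Tmem125, against 7.10% of the windows of 27025 genes. SOX motifs were in 10 windows (40%, against 28.8%) and E-boxes in 10 (40%, against 30.4%). The windows also differed in base content, with a median GC share of 59.7% in the 25 and 52.7% over all genes. The part of base content in the motif shares was not tested. These matches are a description of the letters and were not tested. Further windows of a gene were not searched, and which window oligodendrocytes use was not tested. The windows of Mag (chr7:30914873-30915172, minus strand), Mog (chr17:37023349-37023648, minus strand) and Opalin (chr19:41077064-41077363, minus strand) are given 5′ to 3′ as examples of myelin promoters with the Myrf motif, with each match to any of the motifs in capitals. No matches overlap each other in them.
Mag: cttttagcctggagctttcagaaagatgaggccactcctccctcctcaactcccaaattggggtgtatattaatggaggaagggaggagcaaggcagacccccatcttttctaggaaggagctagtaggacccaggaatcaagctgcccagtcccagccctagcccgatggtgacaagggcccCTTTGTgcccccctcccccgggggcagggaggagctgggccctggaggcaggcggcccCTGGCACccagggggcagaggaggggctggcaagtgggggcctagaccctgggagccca
Mog: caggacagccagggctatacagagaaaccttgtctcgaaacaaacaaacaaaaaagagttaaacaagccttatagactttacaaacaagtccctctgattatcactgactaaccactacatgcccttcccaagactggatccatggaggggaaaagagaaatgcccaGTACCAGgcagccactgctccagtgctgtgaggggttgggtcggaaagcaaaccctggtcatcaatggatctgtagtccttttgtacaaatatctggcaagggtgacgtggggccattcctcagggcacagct
Opalin: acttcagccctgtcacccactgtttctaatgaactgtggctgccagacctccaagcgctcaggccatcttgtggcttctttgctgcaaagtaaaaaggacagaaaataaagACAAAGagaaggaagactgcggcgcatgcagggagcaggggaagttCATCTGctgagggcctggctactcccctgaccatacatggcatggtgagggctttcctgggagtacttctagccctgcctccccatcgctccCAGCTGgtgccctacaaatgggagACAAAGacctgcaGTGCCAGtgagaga

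Of the enzymes, Gal3st1 (ENSMUSG00000049721; chromosome 11, 3983636 to 3999326), which adds the sulfate to galactosylceramide to make sulfatide, had 369.8, 374 and 355 normalized read counts in TG mice, where WT mice had 401, 413 and 443. Each TG mouse was lower than each WT mouse, with a log2 fold change of -0.19 (SE 0.08, 95% interval -0.36 to -0.02, limma adjusted P = 0.971). For Gal3st1, DESeq2 on recovered reads gave an unadjusted P value of 0.0777. For the other steps of galactolipid synthesis the intervals reached 0. Fa2h, which hydroxylates the fatty acids of these lipids, stood at 1938, 1780.4 and 1863 in TG mice, where WT mice had 1922, 2022 and 2147. TG replicate 1 lay above WT replicate 1, and the log2 fold change was -0.13 (95% interval -0.25 to 0.0012). For Ugt8a, which joins galactose to ceramide, it was -0.04 (95% interval -0.16 to 0.07). Aspa, which releases acetate from N-acetylaspartate, had -0.12 (SE 0.08). Cnp had 13769.9, 13707 and 13603 in TG mice, where WT mice had 12888, 12667 and 15055. The TG mice lay close together inside the wide WT range, and the log2 fold change was 0.02 (SE 0.06). Cnp shares 154 of its 3639 exon bases with Dnajc7 on the other strand, which had a mean of 4649.5 normalized read counts. Of the 5 enzymes 4 were lower, with a median of -0.12, which was -0.05 without TG replicate 1. Both medians are the value of Aspa. Without that mouse Gal3st1 (-0.20) and Fa2h (-0.16) moved further below 0, while Ugt8a had -0.01 and Cnp 0.02.

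The promoter windows of the 3 genes without overlap, Gjb1 (chrX:101376126-101376425, plus strand, the first of 4 windows), Gal3st1 (chr11:3983386-3983685, plus strand, the first of 3) and Enpp6 (chr8:46986637-46986936, plus strand), each held 1 SOX motif, shown in capitals, and 0 Myrf motifs or E-boxes. The windows of Mag, Mog and Opalin were printed because they hold the Myrf motif, which 6 of the 25 windows held. The windows below therefore cannot be compared with them for that motif. SOX motifs were in 40% of the 25 windows and in 28.8% of the windows of all genes. A link between the motif and the fold changes was not tested. The other windows of Gjb1 and Gal3st1 were not searched.
Gjb1: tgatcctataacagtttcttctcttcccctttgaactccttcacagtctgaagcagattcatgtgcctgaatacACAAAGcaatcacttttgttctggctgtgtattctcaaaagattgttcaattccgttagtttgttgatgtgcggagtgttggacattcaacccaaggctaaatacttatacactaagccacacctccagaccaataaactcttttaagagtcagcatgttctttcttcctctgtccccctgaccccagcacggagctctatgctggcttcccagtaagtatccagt
Gal3st1: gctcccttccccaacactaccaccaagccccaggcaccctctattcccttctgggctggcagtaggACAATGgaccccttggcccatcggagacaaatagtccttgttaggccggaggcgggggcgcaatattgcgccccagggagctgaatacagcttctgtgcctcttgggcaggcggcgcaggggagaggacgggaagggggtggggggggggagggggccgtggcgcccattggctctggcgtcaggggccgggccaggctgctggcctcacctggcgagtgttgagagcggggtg
Enpp6: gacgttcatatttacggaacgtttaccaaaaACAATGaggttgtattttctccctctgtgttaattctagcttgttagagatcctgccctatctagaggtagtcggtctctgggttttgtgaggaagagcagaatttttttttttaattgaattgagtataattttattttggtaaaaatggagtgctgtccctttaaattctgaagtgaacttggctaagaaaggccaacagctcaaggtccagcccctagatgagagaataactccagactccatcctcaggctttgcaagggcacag

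The 6 transcription factors were lower on average in TG mice, by log2 fold changes between -0.23 and -0.04, and none of them passed even an unadjusted P value of 0.05. Sox10, which is needed at every stage of the lineage, had 1649, 1613 and 1689 normalized read counts in TG mice, where WT mice had 1884, 1610.5 and 1990.0. WT replicate 2 lay just below the TG mice, and the log2 fold change of -0.14 (SE 0.07) became -0.23 without that mouse and -0.08 without WT replicate 3. Olig2, which specifies the lineage, had 1192, 856 and 866 in TG mice, where WT mice had 1149, 1141 and 972. TG replicate 1 was the highest of all libraries and the other TG mice the lowest, and the log2 fold change of -0.18 (SE 0.12) became -0.33 without TG replicate 1 (limma adjusted P = 0.658) and -0.09 and -0.10 without TG replicates 2 and 3. Myrf, which turns on the myelin genes, had 3185, 3054 and 3202 in TG mice, where WT mice had 3002, 3239 and 3468, with overlapping groups and a log2 fold change of -0.04 (SE 0.06). Olig1 had -0.07 and Nkx6-2 -0.04. Nkx6-2 shares 246 of its 1907 exon bases with Inpp5a on the other strand, which had a mean of 1666 normalized read counts. Nkx2-2 had the largest spread, with a within-genotype SD, pooled over TG and WT mice, of 0.25 on the log2 scale. It had 128 normalized read counts in WT replicate 1 and between 79.5 and 97.2 in the 5 other libraries. Its log2 fold change of -0.23 was -0.05 without WT replicate 1.

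The 6 other genes were each lower on average. Cryab, a small heat shock protein that oligodendrocytes and astrocytes make, had 2866, 2999.9 and 2902 normalized read counts in TG mice, where WT mice had 2948, 3347 and 3328. WT replicate 1 lay inside the range of the TG mice, and the log2 fold change was -0.13 (95% interval -0.26 to -0.01, unadjusted P = 0.0420 and adjusted P = 0.971 by limma). The 10 astrocyte markers, none at 0 throughout, summed to between 137295 and 144901 in TG mice and between 136606 and 144545 in WT mice, with 5 lower and 5 higher. Trf, the iron carrier transferrin, had 209, 245 and 224 in TG mice, where WT mice had 241, 253 and 278. TG replicate 2 exceeded WT replicate 1, and the log2 fold change was -0.19 (SE 0.10). The choroid plexus also makes transferrin, and TG replicate 1, with the highest sum of its markers, had the lowest Trf value. The part of the choroid plexus in the Trf values was not tested. Of the 3320 exon bases of Trf, 2108 are shared with the annotated gene Gm20425 on the same strand, which is listed at 0 in every library, and reads of the shared bases cannot be given to 1 gene, which bears on the level of Trf (72.8 per kb). Gpr37, a receptor of maturing oligodendrocytes, had a log2 fold change of -0.09, Tmem125 of -0.09, Hapln2, a link protein of the node of Ranvier, of -0.08, and Ppp1r14a, an inhibitor of myosin phosphatase, of -0.10. Without WT replicate 3 these were -0.02 for Gpr37, -0.07 for Tmem125, -0.02 for Hapln2 and -0.03 for Ppp1r14a.

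A further list of 35 oligodendrocyte genes, of which 34 were matched and tested, was read in the same way. Of the 34, 27 were lower in TG mice, the median log2 fold change was -0.07, and 0 passed an adjusted P value of 0.05 by limma. Without WT replicate 3, 22 were lower, with a median of -0.03. An unadjusted P value under 0.05 was seen in 4 lower and 0 higher genes, against 2.33% and 1.98% of all genes tested, and 3 lower genes were without overlap, against 5.05%. Plekhb1, a membrane-binding protein, had 10991, 11153 and 10734 normalized read counts in TG mice, where WT mice had 11729.9, 11718 and 12353, with a log2 fold change of -0.12 (SE 0.05). Car2, a carbonic anhydrase, had 5179, 5519.9 and 5214 in TG mice, where WT mice had 5709, 5588 and 5917, with a log2 fold change of -0.11 (SE 0.05). In both genes the groups did not overlap. The higher genes with the smallest P values were Cdk18 (0.08, SE 0.10), Lhfpl3 (0.06, SE 0.09) and Matn4 (0.05, SE 0.08).

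**Figure D5:**
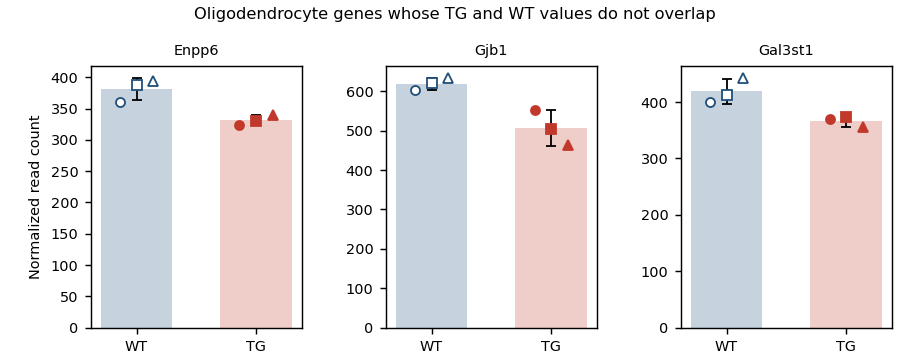
Normalized read counts of Gjb1, Enpp6 and Gal3st1, whose TG and WT values do not overlap, with the mean as a bar, the SD as an error bar (n = 3) and each mouse as a point (circle, square and triangle for replicates 1, 2 and 3). In each gene every TG mouse is lower than every WT mouse, and the ratio of the means is lowest in Gjb1, at 0.819.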

How the data were processed

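Per the paper's methods and the submitters' processing notes, reads were trimmed with Trimmomatic 0.35, aligned with TopHat2 2.1.0 to GRCm38 and counted per gene with HTSeq. The strand setting and annotation release are not given in the sources used here. Deposited values are a signal for each gene in each library, in which the authors divided the read count by the DESeq2 size factor. Dividing by each library's smallest value above 0 gave whole numbers (within 0.01) for 100% of values, which are the recovered reads. Identifiers were matched to GENCODE M21 (45143 of 46078), and levels per kb use its merged exons. The test was limma 3.58.1 (mean-variance trend, pseudocount 1, two-sided) over genes whose mean reached 10. P values were adjusted by Benjamini-Hochberg, with a threshold of 0.05. DESeq2 1.42.0 and edgeR 4.0.16 on recovered reads and limma-voom were alternatives (R 4.3.3). The fit was tested on simulated data, and no outcome of that test is reported here.

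The 34 genes, the further list and the marker lists were chosen with earlier results of these data known, so no list test was run. Values in every library are given for Mbp, Mog, Cnp, Sox10, Olig2, Myrf, Pdgfra, Cspg4, Enpp6, Gpr17, Bcas1 and Trf, for the 5 genes with the smallest limma P value and for those without overlap. From the further list, the 3 lower and 3 higher genes of smallest P value were chosen to be named, and 1 of these is not reported here. Mal, Tspan2 and Nkx2-2 values, and the printed promoters, were chosen after the values were seen. The gene 9630013A20Rik of the further list was not matched. No promoter window was matched for Bcas1, Cryab, Fa2h, Gpr17, Mbp, Myrf, Olig1, Sox10 and Trf.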

Additional observations from a re-analysis of the deposited data

How the results depend on the processing

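The count of the 34 genes at an adjusted P value under 0.05 was 0 under all 17 alternatives, and 23 of the 34 genes kept the direction of their log2 fold change under each of them. The values that moved are given here, and the cause was not tested. Of the 34 genes, those lower with an unadjusted P value under 0.05 numbered 2 by DESeq2 on recovered reads, 7 with the choroid plexus markers as a covariate, and between 1 (without WT replicate 3) and 7 (without WT replicate 1) with each mouse left out, and higher ones between 0 and 2, the 2 being Mal and Tspan2 without WT replicate 3. Genes without overlap numbered between 3 and 11 lower and between 0 and 4 higher with a mouse left out, when 8.37% to 13% of all genes were without overlap lower and 8.63% to 12.6% higher. The number of the 34 genes that were lower was between 22 and 31 with a mouse left out, and the median of the membrane and junction genes turned to 0.0322 without WT replicate 3. With the covariate the median of the newly formed genes was -0.15. With each mouse left out, the median was between -0.128 and -0.0348 in the newly formed genes, -0.128 and -0.0541 in the enzymes, -0.157 and -0.0447 in the precursor genes, -0.0804 and 0.0322 in the membrane and junction genes, -0.128 and -0.0763 in the transcription factors and -0.16 and -0.0478 in the other genes.

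Over all genes, DESeq2 called 5 higher and 2 lower genes, limma without a filter 4 higher and 1 lower, and with each mouse left out limma called between 1 and 2 higher and between 0 and 1 lower. Directions turned with the covariate in Gpr17 (-0.0463), Mog (-0.0151), Mobp (-0.0807) and Gjc3 (0.0389). With a mouse left out, log2 fold changes that changed sign ranged from -0.0243 to 0.0581 in Gpr17, -0.0203 to 0.0691 in Mog, -0.0554 to 0.0628 in Mobp, -0.0828 to 0.0433 in Gjc3, -0.1004 to 0.0026 in Pdgfra, -0.116 to 0.0242 in Nkx6-2, -0.156 to 0.0206 in Opalin, -0.0247 to 0.0999 in Cnp, -0.151 to 0.0211 in Mag, -0.078 to 0.0647 in Cldn11 and -0.0912 to 0.0129 in Myrf.

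With the replicate number as a block, 7 lower genes had an unadjusted P value under 0.05, and 0 an adjusted one. The deviations of same-numbered mice correlated by 0.0474, 0.0163 and 0.0928. These correlations were low, but with 3 mice per genotype they cannot exclude a pairing by number. The median SE of the 34 log2 fold changes was 0.07, and even the -0.29 of Gjb1, the largest in size, did not pass the adjusted threshold with 3 mice against 3.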
